A study of Mus musculus with 9 samples.

Results

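The immediate early genes are a set of transcripts that cells induce within minutes of a stimulus, and 10 of them are described here: Fos, Fosb, Jun, Junb, Egr1, Atf3, Nr4a1, Ier2, Dusp1 and Btg2. They were taken by symbol from a fixed list, and they are 10 of the 55450 genes in the count files. The libraries came from the Rathke’s pouch, the primordium of the anterior pituitary, of 7 embryos at embryonic day 13.5, and from the pituitary of 2 adult mice at postnatal week 8 after removal of the posterior lobe. The embryos carried the Sox2Egfp/+ allele, in which a reporter replaces 1 copy of the progenitor gene Sox2, and no such allele is named for the adults. All animals were on a mixed 129Sv/c57BL6J background. Both stages held males and females, and the sex of each library was not used. Depth ranged from 16738863 to 28537311 counted read pairs in the embryos, and was 36421545 and 31191117 in adults 1 and 2.

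These genes are transcribed without new protein synthesis, because the factors that switch them on, among them SRF with its partners and CREB, are already in the cell and are activated by kinases. Most of their products are transcription factors or inhibitors of the same signals, and their messenger RNAs are short lived. In the pituitary, hypothalamic hormones acting through receptors and cyclic AMP or calcium are known inducers of several of them, and handling or dissociation of tissue is known to induce them too.

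Embryos 1 and 4 stood apart from the other embryos. Genes received 59.7% and 62.8% of their read pairs, while the other 5 embryos had 73.9% to 80.0%, and haemoglobin genes took 14.6% and 16.8% of counts, against 0.772% to 2.06%. The stage comparisons of the members are therefore also given without embryos 1 and 4, and so are the calls of the 28 listed genes named below and the count of members called. Marker sums and the ranking of other genes were not repeated without them. Levels are CPM after TMM scaling. Sox2, the progenitor factor whose locus carries the reporter, had a median of 39.4 CPM in embryos and 64.0 and 56.8 CPM in adults 1 and 2. Gh, which encodes growth hormone, was at 53441 and 63814 CPM in the adults and at no more than 1.90 CPM in any embryo.

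Among the 10 members, all 10 passed the filter on low counts, and 5 were called lower in embryo than in adult at an adjusted p below 0.05 and a fold change above 4. By the same rule 25.8% of all 19371 genes tested were called, 14.6% lower in embryo and 11.3% higher, and no member was called higher. At the adjusted p alone 6 members were lower and 1 was higher, while 51.4% of all genes tested were called, 27.4% lower and 24.0% higher. The median log2 fold change, embryo over adult, was -2.33 over the members and -0.04 over all genes tested. Adjusted p-values are from the quasi-likelihood test of edgeR across all genes with Benjamini-Hochberg adjustment. In bulk tissue, fewer cells of a type and less RNA per cell cannot be told apart. Without embryos 1 and 4 the count of members called was again 5, without adult 1 it was 4 and without adult 2 it was 6.

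**Figure D1:**
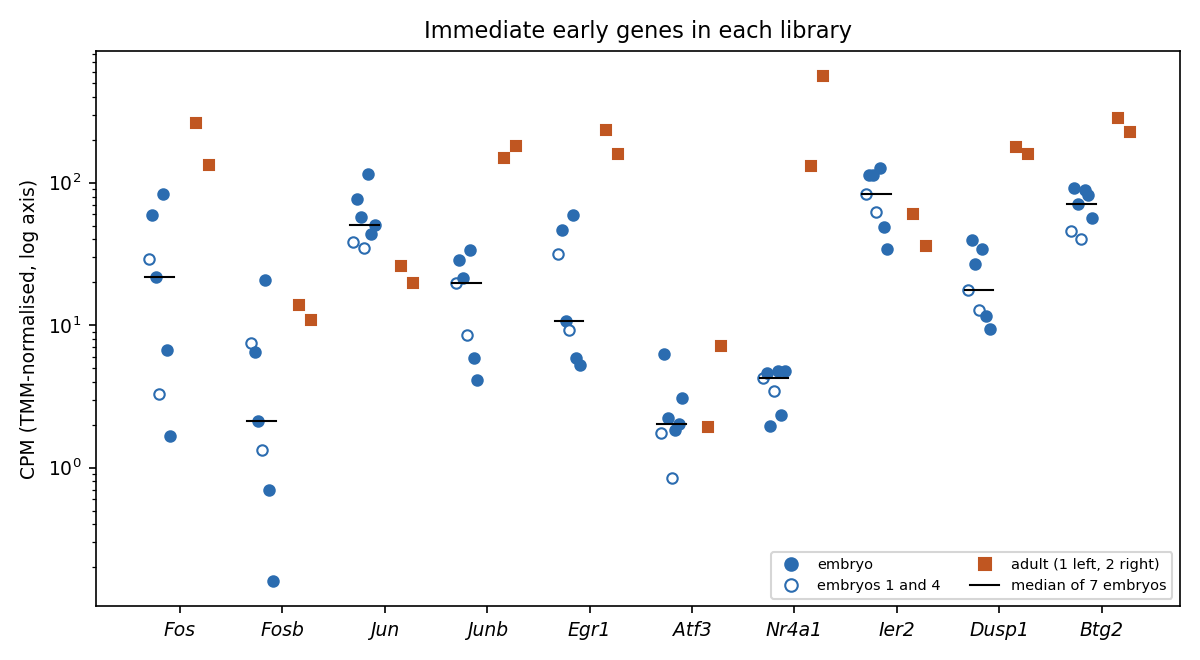
Level of each of the 10 genes in each of 9 libraries, in CPM on a log axis, with embryos as circles (embryos 1 and 4 open), adults as squares and the median of the 7 embryos as a line. Nr4a1 was at 130 and 561 CPM in the adults and at no more than 4.78 CPM in any embryo.

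Because Fos moved together with several other members across embryos, the bases upstream of 4 starts are shown, those of Fos and Dusp1, which moved together, and those of Btg2 and Nr4a1, which were in no called pair. Of the 10 members, 8 had a RefSeq window in build GRCm38.p6, and Egr1 and Ier2 had none. Capitals mark matches, on either strand, to the cyclic AMP response element TGACGTCA, its core TGACG, which the full element contains on both strands, the EGR site GCGGGGGCG and the TATA box TATAAA. The windows are chr12:85473640-85473889 on the plus strand for Fos, chr17:26508520-26508722 on the minus strand for Dusp1, chr1:134079156-134079405 on the minus strand for Btg2 and chr15:101266596-101266845 on the plus strand for Nr4a1, each read in the direction of the gene. The Dusp1 window was shortened to leave out bases that GENCODE places in an exon, and the Dusp1 and Nr4a1 windows lie inside longer annotated transcripts of the same genes.
Fos: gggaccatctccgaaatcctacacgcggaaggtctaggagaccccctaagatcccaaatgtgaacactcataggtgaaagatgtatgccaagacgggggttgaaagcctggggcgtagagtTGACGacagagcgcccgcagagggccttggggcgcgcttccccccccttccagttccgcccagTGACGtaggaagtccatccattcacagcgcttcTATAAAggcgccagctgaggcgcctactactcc
Dusp1: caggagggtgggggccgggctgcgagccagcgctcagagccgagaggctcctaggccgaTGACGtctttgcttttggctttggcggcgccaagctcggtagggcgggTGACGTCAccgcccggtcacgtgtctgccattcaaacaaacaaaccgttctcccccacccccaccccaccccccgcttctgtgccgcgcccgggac
Btg2: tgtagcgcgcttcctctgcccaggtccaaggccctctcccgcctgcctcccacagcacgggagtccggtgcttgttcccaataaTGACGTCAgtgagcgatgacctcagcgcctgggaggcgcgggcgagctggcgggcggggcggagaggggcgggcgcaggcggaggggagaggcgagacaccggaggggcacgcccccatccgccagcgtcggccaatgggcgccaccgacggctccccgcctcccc
Nr4a1: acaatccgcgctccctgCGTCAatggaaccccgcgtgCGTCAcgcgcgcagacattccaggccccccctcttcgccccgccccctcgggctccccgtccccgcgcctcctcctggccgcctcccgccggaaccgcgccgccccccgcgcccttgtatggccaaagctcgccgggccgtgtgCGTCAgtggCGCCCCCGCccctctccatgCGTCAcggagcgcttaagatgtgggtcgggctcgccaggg

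The core TGACG was in the 250 bases upstream of 7 of the 8 members and in 17.8% of all 32851 windows. The full element was upstream of Dusp1 and Btg2, 2 of 8 members, and in 1.55% of all windows. The EGR site was upstream of Fosb and Nr4a1 and in 2.57% of windows, and the TATA box was upstream of Fos, 33 to 28 bases before its start, and in 12.4% of windows. The AP-1 site TGACTCA was upstream of none of the 8 members and in 4.46% of windows, the Nr4a binding site AAAGGTCA of none and in 1.34%, and the CArG box, bound by SRF, of none and in 1.47%. A match describes letters only, and no match says only that these letters are not in the window.

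Fos, Fosb, Jun and Junb encode the subunits of AP-1, a dimeric transcription factor of a Fos and a Jun protein. Fos, on chr12:85473890-85477273, ranged from 1.67 to 82.7 CPM across embryos with a median of 21.7 CPM, and was at 264 and 133 CPM in adults 1 and 2. Embryos 2 and 5 were highest and embryos 4, 6 and 7 lowest, and no embryo reached either adult. Its mean was 29.2 ± 31.0 CPM (SD, n = 7) in embryos and 198 ± 92.5 CPM (SD, n = 2) in adults, 6.78-fold higher in adults, with a log2 fold change of -2.76 (SE 0.88, adjusted p = 0.0173). Without embryos 1 and 4 the log2 fold change of Fos was -2.50 (adjusted p = 0.0289). After correction for length and GC content it was -3.37. Without adult 1 the call was lost, with a log2 fold change of -2.20 (adjusted p = 0.137), where adult 2 is the lone adult and is assumed to vary like the embryos.

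Junb, which encodes the Jun subunit that many stimuli induce alongside Fos, ranged from 4.14 to 33.8 CPM across embryos with a median of 19.9 CPM, and was at 149 and 182 CPM in adults 1 and 2. Embryos 6 and 7 were lowest, embryo 5 was highest, and all embryos were below both adults. Its log2 fold change was -3.24 (SE 0.54, adjusted p = 0.000247), and -3.12 without embryos 1 and 4. After correction for length and GC content it was -3.90. Junb, on chr8:84974484-84978718 of the minus strand, overlaps at its 3′ end the 3′ end of Prdx2 on the plus strand, and the strand-specific counts keep these apart.

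Jun was the only AP-1 subunit among the members with higher levels in embryos. It ranged from 34.6 to 115 CPM across embryos with a median of 50.5 CPM, and was at 26.0 and 19.8 CPM in adults 1 and 2. Every embryo was above both adults, with embryo 4 lowest and embryo 5 highest. The mean was 59.5 ± 28.1 CPM (SD, n = 7) against 22.9 ± 4.43 CPM (SD, n = 2), 2.60-fold higher in embryos, and the log2 fold change was 1.38 (SE 0.44, adjusted p = 0.0165). The fold change was below the 4-fold threshold. Without embryos 1 and 4 the log2 fold change was 1.61 (adjusted p = 0.00364). The call at adjusted p alone was lost when 1 adult was left out, and with library sizes alone (adjusted p = 0.0742). The log2 fold change was then 1.57 without adult 1, 1.18 without adult 2 and 1.22 with library sizes alone.

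Fosb, the close relative of Fos, ranged from 0.16 to 20.7 CPM across embryos with a median of 2.11 CPM, and was at 13.9 and 11.0 CPM in adults 1 and 2. Embryo 5 lay above both adults and the other embryos lay below them, so the groups overlapped. The log2 fold change was -1.15 (SE 1.01, adjusted p = 0.357), and -1.01 without embryos 1 and 4, and did not pass the test. Leaving out embryo 5 gave -2.03 (adjusted p = 0.0635).

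Egr1, a zinc finger factor required in gonadotrophs for the hormone subunit gene Lhb, ranged from 5.23 to 59.6 CPM across embryos with a median of 10.7 CPM, and was at 236 and 160 CPM in adults 1 and 2. Embryos 2 and 5 were highest, embryos 6 and 7 lowest, and none reached the adults. The fit gave a log2 fold change of -3.04 (SE 0.67, adjusted p = 0.00195), and -2.93 without embryos 1 and 4.

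Nr4a1, an orphan nuclear receptor that acts on the Pomc promoter in corticotrophs, had the widest gap between stages among the members. It ranged from 1.95 to 4.78 CPM across embryos with a median of 4.25 CPM, and was at 130 and 561 CPM in adults 1 and 2. The embryos lay close together, and the adults lay far above them and far apart. Its mean was 3.73 ± 1.18 CPM (SD, n = 7) in embryos and 346 ± 305 CPM (SD, n = 2) in adults, 92.6-fold higher in adults, and the log2 fold change was -6.53 (SE 0.42, adjusted p = 1.09e-07). It was -6.52 without embryos 1 and 4, -5.13 without adult 2 and -7.25 without adult 1.

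Atf3, a stress-induced factor of the ATF and CREB family, ranged from 0.85 to 6.28 CPM across embryos with a median of 2.03 CPM, and was at 1.94 and 7.11 CPM in adults 1 and 2. The groups overlapped, and the highest embryo, embryo 2, lay between the adults. The log2 fold change was -0.80 (SE 0.63, adjusted p = 0.307), and it was 0.41 without adult 2, so its sign rested on that library. It was -1.47 without adult 1 and after correction for length and GC content, and -0.52 without embryos 1 and 4.

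Ier2, a nuclear protein induced early, ranged from 34.2 to 127 CPM across embryos with a median of 82.7 CPM, and was at 60.4 and 36.1 CPM in adults 1 and 2. Of the 7 embryos, 5 were above both adults, and embryo 7 lay below both. The log2 fold change was 0.78 (SE 0.45, adjusted p = 0.158), did not pass the test, and was 0.88 without embryos 1 and 4 and -0.05 after correction for transcript length and GC content. It was 1.18 without adult 1 and 0.45 without adult 2.

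Dusp1, a phosphatase that inactivates MAP kinases, ranged from 9.36 to 39.7 CPM across embryos with a median of 17.6 CPM, and was at 178 and 159 CPM in adults 1 and 2. Embryos 2 and 5 were highest, embryo 7 lowest, and no embryo reached the adults. For Dusp1 the log2 fold change was -2.95 (SE 0.42, adjusted p = 7.07e-05), and -2.77 without embryos 1 and 4.

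Btg2, an antiproliferative cofactor that promotes mRNA deadenylation, ranged from 40.0 to 91.6 CPM across embryos with a median of 71.0 CPM, and was at 285 and 226 CPM in adults 1 and 2. Embryos 1 and 4 were lowest, and all embryos were below the adults. For Btg2 the log2 fold change was -1.91 (SE 0.29, adjusted p = 0.000145), which passed at the adjusted p but not at the 4-fold threshold, and it was -1.69 without embryos 1 and 4. Btg2 passed that threshold too, and was called, without adult 2 (-2.08), with library sizes alone (-2.10) and after correction for length and GC content (-2.15).

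**Figure D2:**
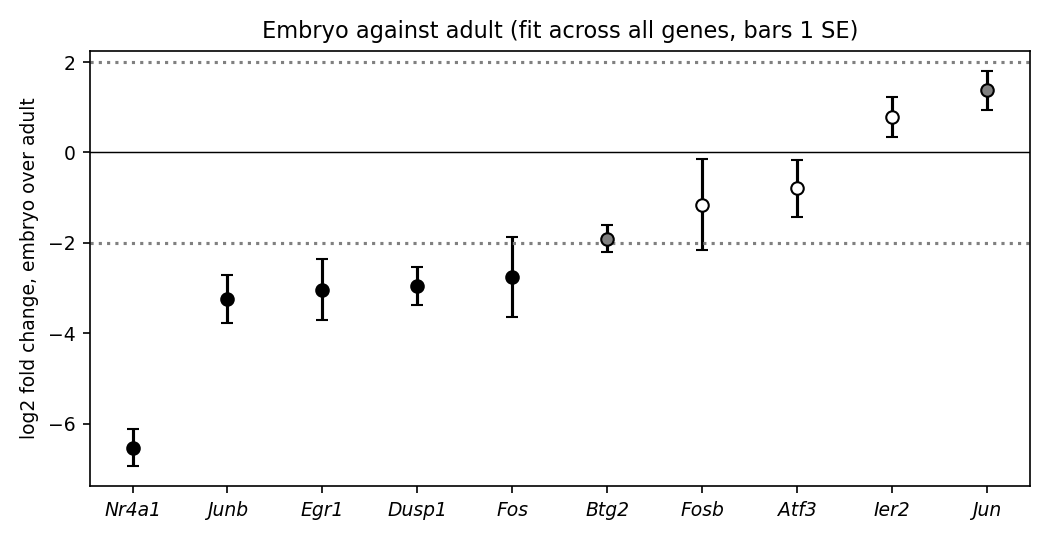
Log2 fold change, embryo over adult, of each of the 10 genes with 1 SE from the fit across all genes, filled black where called at adjusted p and fold change, grey where at adjusted p alone and open otherwise, with dotted lines at a 4-fold change. Nr4a1 had the lowest value, -6.53, and Jun the highest, 1.38.

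The order of levels within a stage was taken per kilobase of merged exons. In embryos the highest median level per length was that of Ier2, at 54.3 CPM per kilobase, followed by Btg2 at 25.9 CPM per kilobase and Jun at 15.8 CPM per kilobase. The lowest was that of Fosb at 0.34 CPM per kilobase. In adults the highest mean level per length was that of Nr4a1 at 98.5 CPM per kilobase, followed by Btg2 at 93.2, Fos at 84.3 and Junb at 71.8 CPM per kilobase, which were not separated in view of the spread between the 2 adults.

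The members differed in how far they spread across embryos. The SD of log2 CPM over the 7 embryos was 2.28 for Fosb, 2.12 for Fos and 1.44 for Egr1. For these 3 it was above the 95th percentile of the 14079 genes averaging 50 counts or more over all 9 libraries. Fosb rested on 5, 14 and 19 counts in embryos 7, 6 and 4, and Atf3 on 12 in embryo 4. The part of counting error in their spread and correlations was not tested. Of the 10 members all 10 lay above the median SD over genes, 0.47, and the median over the members was 0.84. The lowest SDs were those of Btg2, 0.48, and Nr4a1, 0.52. Fos varied 49.6-fold from the lowest embryo to the highest and Nr4a1 2.45-fold. The range of Fos rested on embryo 7, at 1.67 CPM, with embryo 4 next at 3.31 CPM.

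Across the 7 embryos 43 of the 45 pairs of members had a positive Pearson r of log2 CPM, and the median r was 0.60, beside a median of 0.01 over all pairs of the genes averaging 50 counts or more. The median of the members was at the 86.3rd percentile of all pairs. This rank is among single pairs, so it does not show how unusual the members are as a set. With library sizes alone these medians were 0.64 and 0.27, and the percentile was 77.8, so the level for all pairs depended on the scaling. How many of all pairs would pass was not computed. The counts of member pairs, positive or passing, therefore describe the members and have no share over all pairs beside them. Of the 45 pairs, 12 passed at an adjusted p below 0.05 by exact permutation over all orders of the embryos, on both sides, with Benjamini-Hochberg adjustment over the 45 pairs. By Spearman’s rho 12 pairs passed, of which 10 were the same. Fos with Ier2 and Fosb with Ier2 (adjusted p = 0.0714 each by rho) passed by r only, and Egr1 with Ier2 (0.0461) and Egr1 with Dusp1 (0.0379) by rho only. All 12 pairs called by r joined 2 of the 6 genes Fos, Fosb, Junb, Egr1, Ier2 and Dusp1. Jun, Atf3, Nr4a1 and Btg2 were in none of them.

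**Figure D3:**
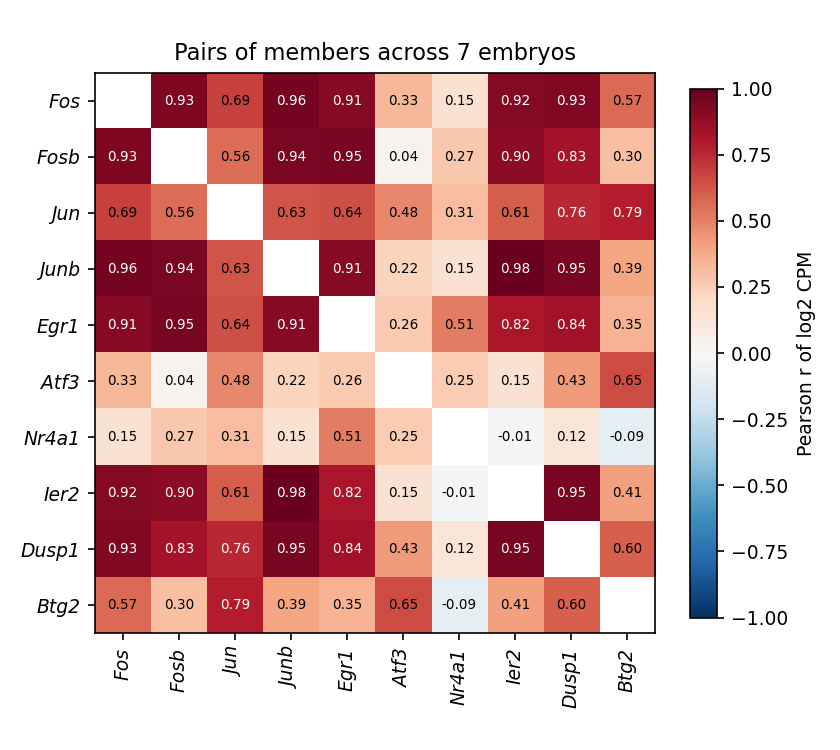
Pearson r of log2 CPM across 7 embryos for each of the 45 pairs of members, printed in each cell, with red for positive and blue for negative values. The 6 genes Fos, Fosb, Junb, Egr1, Ier2 and Dusp1 had r from 0.82 to 0.98 with each other.

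The highest correlation was between Junb and Ier2, with r = 0.98 (exact permutation p = 0.000397, adjusted p = 0.00893) and rho = 0.96 (exact permutation p = 0.00278, adjusted p = 0.025). Without embryos 7 and 6, the 2 farthest from the median of Junb, r was 0.94. Fosb and Egr1 had r = 0.95 (exact permutation p = 0.000397, adjusted p = 0.00893) and rho = 0.96 (exact permutation p = 0.00278, adjusted p = 0.025), and r was 0.97 without embryos 7 and 5. Fos and Junb had r = 0.96 (exact permutation p = 0.00179, adjusted p = 0.0201) and rho = 0.93 (exact permutation p = 0.00675, adjusted p = 0.0379), and r was 0.96 without embryos 7 and 4. Of the 12 called pairs, 11 had r above 0.8 without the 2 embryos farthest from the median of 1 gene of the pair.

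The calls changed when embryos were left out, which also removes orders from the test. Without embryo 7 no pair was called while the median r was 0.73, with 44 of 45 pairs positive. Without embryo 5 no pair was called and the median r was 0.47, and without embryo 2 the calls were 4 and the median r was 0.51. Leaving out embryo 1, 3, 4 or 6 alone gave 10, 13, 11 and 12 calls in that order. With 6 embryos the smallest p that permutation over 720 orders can give is 0.00139. Without embryos 1 and 4 the median r was 0.76 over the 5 embryos left, where the smallest p is 0.00833 and no pair was called.

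Nr4a1 had the lowest r with the other members over the 7 embryos. Its r with the mean of the other 9 members was 0.22, and its median r with the others was 0.15. Its pairs moved unevenly without the 2 embryos farthest from the median of 1 gene of the pair, and those 2 differ between pairs. Its r went from 0.15 to 0.78 with Fos (without embryos 7 and 4), from 0.27 to 0.72 with Fosb (7 and 5), from -0.09 to 0.75 with Btg2 (3 and 6) and from 0.31 to -0.43 with Jun (5 and 2). With Junb it went from 0.15 to 0.30 (7 and 6), with Egr1 from 0.51 to 0.18 (5 and 2) and with Atf3 from 0.25 to 0.07 (2 and 4). Without embryos 3 and 6 it went from 0.12 to 0.37 with Dusp1 and from -0.01 to 0.13 with Ier2. The next lowest was Atf3, with r = 0.38 to the mean of the others, and the highest were Dusp1, with 0.94, and Fos, with 0.93. These values describe the members and carry no test. Btg2 had r = 0.79 with Jun (exact permutation p = 0.0337, adjusted p = 0.103) and rho = 0.86 (exact permutation p = 0.0238, adjusted p = 0.0714), a pair that did not pass. Without embryos 5 and 2, the 2 farthest from the median of Jun, their r was 0.70.

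**Figure D4:**
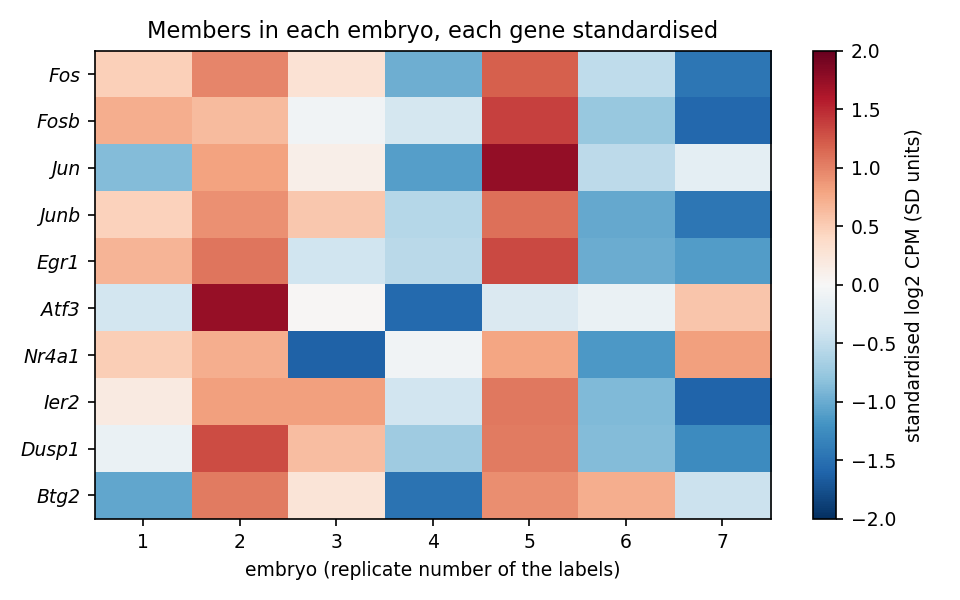
Log2 CPM of each of the 10 genes in each of 7 embryos, standardised per gene to SD units, with red above and blue below the mean of the gene. Embryos 2 and 5 were above the mean in most genes, and embryos 4, 6 and 7 were below it in most.

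Some library measures were ordered over the embryos as many members were. The share of mitochondrial counts was 3.93%, 4.84% and 4.63% in embryos 4, 6 and 7 and 2.11% to 3.41% in the other 4. Counts on the opposite strand were 4.51% to 4.56% of gene counts in embryos 4, 6 and 7 and 4.89% to 5.17% in the other 4. The shares of pairs on genes, of unmapped pairs and of haemoglobin counts did not set embryos 4, 6 and 7 apart. On genes these 3 embryos had 62.8%, 73.9% and 80.0% of pairs, and the other 4 had 59.7% to 78.8%. The part of these measures in the covariation of the members was not tested.

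Outside the members, 14069 genes averaging 50 counts or more were ranked by Pearson r with the mean standardised profile of the 10 members over the 7 embryos. The 5 highest were Clcn7, which encodes a lysosomal chloride transporter, with r = 0.96, Fam129b with 0.96, Bcar1, an adaptor of focal adhesions, with 0.95, Plod3, a lysyl hydroxylase, with 0.95, and Nat14 with 0.95. They were chosen as the highest of many, so their r is a description over 7 embryos. Without the 2 embryos farthest from the median of each gene, r was 0.94, 0.97, 0.79, 0.99 and 0.84 in the same order. Clcn7 ranged only from 24.0 to 35.3 CPM across embryos.

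Marker genes of other cell types were compared in the same libraries. The 5 endothelial markers summed to 104 to 371 CPM across embryos, with Cdh5 the most abundant in all embryos but embryo 2, where Pecam1 was, and embryo 2 the highest, and to 110 and 65.6 CPM in adults 1 and 2, where Kdr was the most abundant. The 4 macrophage markers summed to 93.8 to 243 CPM in embryos, with C1qb the most abundant by the mean over embryos and embryo 2 the highest, and to 80.0 and 122 CPM in the adults. None of these 9 markers was at 0 in either group and none was called at adjusted p and fold change, while Pecam1, Cdh5, Esam and C1qb, 4 of 9, were higher in embryo at the adjusted p alone. Embryo 2, highest in both lists, was second highest in Fos. Embryo 5, highest in Fos, was above the median, 154 CPM, of endothelial markers at 206 CPM and at the median of the macrophage markers, and embryo 7, second highest in endothelial markers at 230 CPM, was lowest in Fos. Their part in the spread of the members was not tested.

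The 4 connective tissue markers summed to 360 to 1232 CPM in embryos, with embryo 2 the highest and embryo 7 next, and to 460 and 289 CPM in adults 1 and 2, with Col1a2 the most abundant by the mean of each stage, and 2 of the 4 were called higher in embryo. The 4 mural cell markers summed to 77.7 to 391 CPM in embryos, with Acta2 the most abundant, embryo 2 the highest and embryo 5 the lowest. They summed to 94.7 and 49.5 CPM in the adults, where Rgs5 was the most abundant. Of the 4, 2 were called higher in embryo, and Rgs5 was lower in embryo at the adjusted p alone (log2 fold change -0.98, adjusted p = 0.0142). The 4 erythroid markers summed to 1322 to 61739 CPM in embryos, with Hbb-bs the most abundant and embryos 1 and 4 the highest, to no more than 5980 CPM in the other 5, and to 657 and 1702 CPM in the adults, and 3 of the 4 were called higher in embryo. No marker of these lists was at 0 in all libraries of a group. Their part in the results for the members was not tested.

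The 7 progenitor markers summed to 533 to 1189 CPM in embryos, with Pitx1 the most abundant and embryo 2 the lowest, and to 489 and 406 CPM in adults 1 and 2, with 2 of 7 called higher in embryo. The 10 hormone-producing markers summed to 889 to 1939 CPM in embryos and to 152731 and 160327 CPM in the adults, where Prl was the most abundant in adult 1 and Gh in adult 2, with 9 of 10 called lower in embryo. The 4 markers of posterior lobe and hypothalamus summed to 45.5 to 134 CPM in embryos, with Rax the most abundant, embryo 2 the highest and Avp at 0 in all 7, and to 5.89 and 8.94 CPM in the adults, with 2 of 4 called higher in embryo and 2 lower. How far the stage differences of the members, or their values in embryo 2, followed these markers was not tested.

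The lists of related genes held 28 named genes, and without embryos 1 and 4 the call at adjusted p and fold change was the same in 27 of them, the exception being Crem. Beside the counts of each list stand the shares over all genes tested, 14.6% called lower and 11.3% higher, and their median log2 fold change of -0.04.

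Among 15 other immediate early transcription factors, 6 were called lower in embryo and none higher at adjusted p and fold change, and the median log2 fold change was -1.28. Without adult 2 the count was 4. Nr4a2, the relative of Nr4a1, ranged from 0.79 to 4.02 CPM in embryos and was at 48.8 and 327 CPM in adults 1 and 2, with a log2 fold change of -6.22 (adjusted p = 1.01e-06). It was -4.28 without adult 2 and -7.04 without adult 1. Egr4 had no count in any embryo and 1.89 and 2.56 CPM in the adults, which is at least 10.1-fold higher in adults against a floor of 3 counts in the embryo library where that floor is highest. At the other end Ier5 had a log2 fold change of 1.17 (adjusted p = 0.00643, and 0.0968 without adult 1) and Klf2 0.82 (adjusted p = 0.165).

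Of the 13 other AP-1 genes 12 were tested, Fosl1 being too low, and 2 were called higher and 1 lower in embryo, with a median log2 fold change of 0.15. Fosl2 ranged from 1.17 to 6.67 CPM in embryos and was at 43.6 and 301 CPM in adults 1 and 2, with a log2 fold change of -5.54 (adjusted p = 2.47e-06), which was -3.58 without adult 2 and -6.37 without adult 1. Atf2 had -1.51 (adjusted p = 0.000449) at a fold below 4. Batf, an inhibitory partner of Jun proteins, had a log2 fold change of 3.42 (adjusted p = 0.00015), and Batf3 had 3.32 (adjusted p = 0.000652).

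Of the 18 rapid-response effectors, 3 were called lower, beside 14.6% of all genes tested, and none higher, with a median log2 fold change of -0.999. Per1, a clock gene that cyclic AMP also induces, had a log2 fold change of -2.37 (adjusted p = 6.89e-05), and Ptgs2, an enzyme of prostaglandin synthesis, had -3.12 (adjusted p = 0.0277) at no more than 9 counts in any embryo. Rgs2, which shortens G protein signals, had 1.67 (adjusted p = 0.00392) and Plk2 had 0.83 (adjusted p = 0.0155), both below the 4-fold threshold. Without adult 2 none of the 18 was called, Per1 being at -1.35, and the adjusted p was 0.231 for Ptgs2 and 0.124 for Plk2. Without adult 1 it was 0.0569 for Ptgs2, 0.126 for Plk2 and 0.0521 for Rgs2. After correction for length and GC content Ptgs2 (-2.11, adjusted p = 0.117) and Per1 (-1.94) were not called and Rgs2 (2.03) was, with 4 of the 18 called in all, and with library sizes alone 5 were called. Ptgs2 was not called by DESeq2 (adjusted p = 0.056).

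Of the 19 feedback inhibitors and mRNA decay factors, 2 were called higher and 1 lower, with a median of -0.26. Dusp4 (2.41, adjusted p = 0.0203) and Dusp6 (2.03, adjusted p = 0.00088), which inactivate ERK, had the highest log2 fold changes, and Tob1 (-2.67, adjusted p = 1.24e-05) and Btg3 (-1.92, adjusted p = 0.000668), relatives of Btg2, had the lowest. Dusp4 lost its call without adult 1 (1.84, adjusted p = 0.172) and was at 3.30 without adult 2. Dusp6 lay close to the 4-fold threshold and fell below it without embryo 2 (1.92), embryo 3 (1.99) or adult 1 (1.88), with DESeq2 or its size factors (1.99 each), with library sizes alone (1.85) and after correction for length and GC content (1.85). Btg3 passed it without embryo 6 (-2.002), without adult 1 (-2.07) and with library sizes alone (-2.12).

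Of the 24 upstream kinases and transcription factors, 2 were called lower and none higher, with a median log2 fold change of -0.77. Those 2 were Rps6ka5, a nuclear kinase below MAP kinases, with -2.67 (adjusted p = 1.17e-05), and Crem, a cyclic AMP responsive factor, with -2.07 (adjusted p = 0.000289). Mapk7 had 1.42 (adjusted p = 0.00317) and Elk1, a partner of SRF, had 1.18 (adjusted p = 0.0121). Crem fell below the 4-fold threshold without embryos 1 and 4 (-1.91), and also without embryo 1 (-1.90), embryo 3 (-1.95) or adult 2 (-1.31) alone. After correction for length and GC content neither was called, with -1.31 for Rps6ka5 and -1.70 for Crem. Without adult 2 the adjusted p was 0.0661 for Mapk7 and 0.109 for Elk1, and without adult 1 it was 0.0834 for Elk1.

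The receptors for hypothalamic hormones Gnrhr, Crhr1, Ghrhr and Trhr were called lower in embryo in 4 of 4, with a median of -8.89. Ghrhr had no more than 4 counts in any embryo and was at 92.0 and 111 CPM in adults 1 and 2, and Gnrhr had no more than 6 counts in any embryo and was at 117 and 58.0 CPM. Trhr had 9 counts at most in an embryo and 6.93 and 20.1 CPM in the adults, and Crhr1 ranged from 0.35 to 1.90 CPM in embryos and was at 26.1 and 29.7 CPM in the adults.

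Of the 12 heat shock and stress genes, 1 was called higher and none lower, with a median log2 fold change of -0.30. Hspe1, a mitochondrial chaperonin, had 2.72 (adjusted p = 0.000181), and Dnajb1, a partner of HSP70, had 1.68 (adjusted p = 0.000971). Bag3 had -1.26 (adjusted p = 0.00476) and Hsph1 had -0.95 (adjusted p = 0.00796). Without adult 2 the adjusted p was 0.2 for Bag3 and 0.301 for Hsph1. After correction for length and GC content no gene of the list was called, Hspe1 being at 1.76, and Hsph1 was at -0.21 (adjusted p = 0.449).

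The 2 adults, 1 male and 1 female, differed from each other in some members more than in others, and which library is which sex is not in the labels. Nr4a1 was higher in adult 2 by a log2 ratio of 2.11, and Atf3 by 1.85, and both were above 0.87, the upper bound of the central 95% of the 14079 genes averaging 50 counts or more. Fos was higher in adult 1, with a log2 ratio of -0.99, below the lower bound, -0.79. Ier2 had -0.74, Egr1 -0.56, Jun -0.40, Fosb -0.34, Btg2 -0.34, Dusp1 -0.17 and Junb 0.29. A pair of libraries gives 1 difference per gene and no test.

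**Figure D5:**
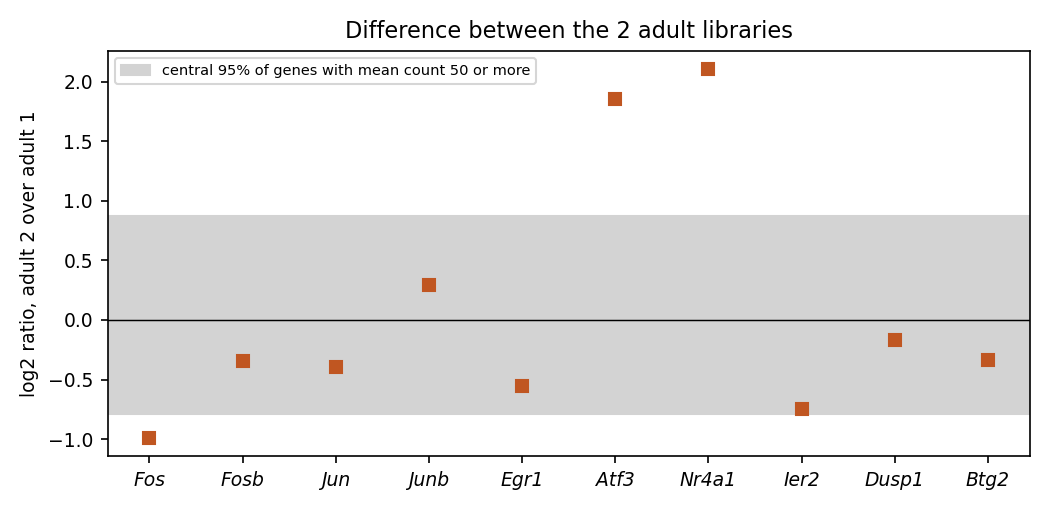
Log2 ratio of CPM, adult 2 over adult 1, for each of the 10 genes, with the grey band holding the central 95% of 14079 genes averaging 50 counts or more. Nr4a1 and Atf3 lie above the band and Fos lies below it.

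Of the 95 listed genes outside the members that averaged 50 counts or more, as the genes of the band did, 20 lay above the central 95%, 2 lay below it and the others lay inside. Among the named list genes at that count those above were Fosl2 (2.78), Nr4a2 (2.74), Per1 (1.63), Trhr (1.53), Dusp4 (1.43) and Crem (1.27), and Gnrhr (-1.01) lay below. For Pomc the adult levels were 27000 and 61903 CPM, and for Prl they were 62090 and 29377 CPM. What these differences share with those of the members was not tested.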

How the data were processed

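RNA was measured in 7 embryo and 2 adult libraries, prepared with a strand-keeping poly(A) kit from an input of 50 ng and read as 75 bp pairs. Per the labels and the methods of the study, the authors trimmed reads with Trimmomatic 0.39, aligned them to mm10 (GRCm38) with STAR 2.7.5b, and deposited the count of each gene as raw pairs, not normalised. The strand-specific count was used, and all 55450 identifiers were found in GENCODE M21, from which symbols, positions and lengths were taken. Rows that name no gene stayed out of library sizes and tests. They took 20.0% to 40.3% of pairs in embryos, 16.0% in adult 1 and 16.3% in adult 2.

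Counts were fitted with edgeR 4.0.16 in R 4.3.3 (TMM factors, common dispersion 0.19, quasi-likelihood test with stage as the only term) over 19371 genes averaging 5 counts or more. A gene was called at a Benjamini-Hochberg adjusted p below 0.05 and a fold change above 4. DESeq2 1.42.0 was an alternative. Correlations used log2 CPM with a prior count of 1. The limit of 50 counts for spread and correlations was a mean over all 9 libraries. Genes low in embryos can therefore pass it through the adults. Nothing says that replicates are not separate animals. With 2 adults, their spread rests on 1 difference. Counts are not corrected for duplicates, so floors cover counting error only. The fit and the permutation test were tested on simulated data, where the fit missed many changed genes of low count, so an uncalled gene of low count is not shown to be unchanged.

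The members and lists were chosen with earlier results of these data known. Named genes are the members, in each pathway list the 2 highest and 2 lowest log2 fold changes, the 5 genes most like the mean of the members, and the cell type markers. Upstream sequences are from RefSeq, build GRCm38.p6.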

Additional observations from a re-analysis of the deposited data

Results flagged for a closer look

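Across the 7 embryos 25 measures were examined (10 members, 8 marker sums and 7 library measures). Of these, 5 had a library set apart from the rest by a gap that is large for the range. The cutoff is met in about 1 in 20 cases for independent values with a normal spread. These measures were taken without logs and are related to each other, so no chance share stands beside the 5. The gaps were not repeated on log2 values. Fosb was highest in embryo 5, at 20.7 CPM, with the next embryo at 7.54 CPM. Atf3 was highest in embryo 2, at 6.28 CPM, with the next at 3.08 CPM. Embryo 2 also had the highest summed macrophage markers, 243 CPM, and the highest summed markers of posterior lobe and hypothalamus, 134 CPM. Embryo 1 had the highest share of unmapped read pairs, 10.3%.

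Counts on the strand that the comparisons did not use were above the limit of 3 counts for 8 members. Junb had up to 637 such counts in a library, in embryo 2, where the 3′ end of Prdx2 overlaps it. Dusp1 had up to 69, Fos up to 13, Nr4a1 up to 12, Egr1 and Btg2 up to 11, Ier2 up to 9 and Jun up to 6. The source of these counts was not tested.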

How the results depend on the processing

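The number of genes called, 5001, was 8960 at a fold change above 2, and stayed within 1.5 times of it under the other alternatives run, with 3683 to 5290 when a library was left out. Under the replicate block, 4236 genes and 5 members were called. Replicates 3 to 7 hold an embryo each and no adult. The stage effect of that fit therefore rests on embryos 1 and 2 against adults 1 and 2. The labels give the stages the same replicate numbers but nothing pairs the animals, and same-numbered libraries had correlations of deviations of 0.07 and 0.02, so the block was not used further. Under the block Ier2 passed at the adjusted p (log2 fold change 1.05, adjusted p = 0.0241). Per1 (-1.93), Dusp4 (1.87) and Dusp6 (1.82) then fell below the 4-fold threshold while Btg3 (-2.08) passed it. With the same block the log2 fold change was -2.17 for Fos, -2.34 for Egr1 and -0.16 for Atf3. The members called, 5 of 10, were 4 to 6 when a library was left out, and 7 at a fold above 2. Genes called in the 7 pathway lists, 22 of 105 listed, were 50 at a fold above 2. Over all 19371 genes tested 5001, or 25.8%, were called, and 8960 at a fold above 2. The log2 fold change of Atf3 was 0.41 without adult 2 and -1.47 without adult 1, and that of Ier2 -0.0502 after the length and GC correction. Of 180 values of the members under alternatives, 174 had the same sign and the same call at adjusted p and fold change, and 173 the same sign and side of the adjusted p. With library sizes alone and after the length and GC correction 6 members were called, Btg2 being added. Library sizes alone moved the median log2 fold change of all genes from -0.04 to -0.26, and the block moved it to -0.20. Ier5, Plk2 and Elk1 did not pass at the adjusted p with library sizes alone (0.0646, 0.141 and 0.0722), and under the block Ier5, Plk2 and Bag3 did not (0.0699, 0.247 and 0.163).

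The median r of members, 0.60, was 0.47 to 0.73 when an embryo was left out and 0.76 without embryos 1 and 4. The median SD, 0.84, was 0.97 with library sizes alone, 0.74 after the length and GC correction and 0.73 to 0.91 when an embryo was left out. The pairs called, 12, were 0 to 13 when an embryo was left out and 0 without embryos 1 and 4, where fewer samples limit the smallest p. Other causes were not tested. Log2 fold changes over all genes were correlated with transcript length (Spearman rho -0.39), and the correction left 0.06. Depth limits Ptgs2, Egr4, Trhr, Ghrhr and Gnrhr in embryos, with few or no counts. It also limits Fosb and Atf3 in the embryos where they were lowest.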
